A study of Mus musculus with 40 samples.

Results

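RNA of sorted immature B cells (fraction FrE of the Hardy scheme) was compared between 5 mutant and 5 wild-type (WT) bone marrow chimeric mice. These 10 libraries were taken from the 40 of the series by the genotype and the fraction letter E in their titles. The mutant group consisted of lethally irradiated CD45.1 mice carrying marrow of donors homozygous for P198A, a proline to alanine change at residue 198 of the zinc transporter ZIP7 (gene Slc39a7) that had been made with CRISPR/Cas9. The WT group consisted of equally treated CD45.1 mice carrying WT marrow. All chimeras received marrow of 1 genotype only and were sampled after 8 weeks, and each library came from 100 viable cells that were B220+, CD43-, CD45.1-, CD45.2+, IgM+ and IgD-. Mutant mice bore the numbers 4, 5, 8, 9 and 10, and WT mice the numbers 1, 2, 3, 6 and 7. Age, sex and strain background of donors and hosts are not given. In the titles KO stands for the mutant animals, although the allele changes 1 residue.

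ZIP7 lies in the membranes of the endoplasmic reticulum (ER) and Golgi and moves zinc from these stores into the cytosol. Immature B cells are the first cells of the lineage to carry a complete IgM receptor. In passing from the pre-B stage to this one they normally lose IL-7 receptor and recombinase transcripts, gain MHC class II, CD20 and BAFF receptor, and are tested for reactivity to self before leaving the marrow.

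The libraries were of unequal quality, so 2 sets were analysed side by side. Endogenous totals in mutant mice 4, 5, 8, 9 and 10 were 19626600, 19511300, 20678000, 42111 and 18920900 counts (given to 6 digits). In WT mice 1, 2, 3, 6 and 7 they were 23299200, 18270700, 18894900, 13884100 and 5734930 counts. The share of detected genes with only 1 to 9 counts was 87.9% in mutant mouse 9 and 28.1% in WT mouse 7, while it lay between 6.83% and 14.7% in the other 8. Libraries above 15% were left out of the smaller set, which holds mutant mice 4, 5, 8 and 10 and WT mice 1, 2, 3 and 6. The highest share inside that limit was 14.7% in WT mouse 1, and the lowest outside it was the 28.1% of WT mouse 7. Lars2, the mitochondrial leucyl-tRNA synthetase, stood at 9569 CPM in mutant mouse 9 and 36370.2 CPM in WT mouse 7 (CPM are counts scaled to a common library total), against 269 to 3283 CPM in the other 8. With 42111 counts, many levels of mutant mouse 9 rest on a few counts, and whether that library holds mainly RNA of the sorted cells was not tested. Spearman correlations over genes in the 8-library set were 0.793 to 0.853 within mutants, 0.782 to 0.851 within WT and 0.749 to 0.837 between the genotypes.

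Pan-B markers were detected in every library. Cd79a, a signalling chain of the B cell receptor, ranged from 3713 to 7091 CPM in mutants and from 1466 to 12138 CPM in WT. It was not called, at -0.60 ± 0.24 on the log2 scale in 8 libraries (SE, adjusted p = 0.535). Of the 11 defining markers listed, 9 were in the table, and the immunoglobulin constant genes are not analysed here, so the IgM gate was not checked by RNA. In 8 libraries Ms4a1 was called lower and Cd93 higher in mutants (-1.78 ± 0.25 and 1.83 ± 0.33, SE, adjusted p = 0.0141 and 0.0395). The others of the 9 were not called, with Ebf1 at 1.42 ± 0.31 and Ptprc at -0.72 ± 0.26 (SE, adjusted p = 0.0984 and 0.425).

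Slc39a7 RNA did not separate the genotypes, and a missense allele need not change it. It measured 47.3, 36.8, 26.5, 111 and 66.7 CPM in mutant mice 4, 5, 8, 9 and 10, and 2.33, 40.5, 31.6, 130.0 and 419 CPM in WT mice 1, 2, 3, 6 and 7. The groups overlapped, and the highest value was that of the low-complexity WT mouse 7. The log2 fold change of mutant over WT was -0.22 ± 0.80 in 8 libraries and -1.32 ± 0.94 in 10 (SE, adjusted p = 0.992 and 0.999). None of the other zinc transporter genes was called, and the 14 tested of 22 in the list stood at a median of -0.06 in 8 libraries, with 7 above and 7 below 0. Of the zinc-responsive genes, Mt1, a zinc-binding metallothionein, stood at -2.52 ± 1.70, Mtf1, the zinc-sensing transcription factor, at -0.71 ± 1.01 and Slc30a1, the exporter ZnT1, at -0.63 ± 2.098 (SE), none of them called.

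With all 10 libraries no gene was called at an adjusted p under 0.05 by the quasi-likelihood test of edgeR. This was 0 of 9662 tested genes (0%), with 512 at an unadjusted p under 0.05, of which 151 were higher and 361 lower in mutants, and the lowest adjusted p was 0.127. The median of all genes was -0.10 on the log2 scale, with 43.6% of them above 0. DESeq2 on the same libraries called 22 higher and 36 lower, and voom with sample quality weights 3 and 7. In the 8-library set 16 genes were higher (0.162% of 9866) and 12 lower (0.122%) in mutants. At an unadjusted p under 0.05 there were 350 higher (3.55%) and 431 lower (4.37%). The median of all genes was -0.02 on the log2 scale, with 49.1% of them above 0. DESeq2 then called 81 higher and 106 lower, among them all 28. Every fold change and call given from here on is from the 8-library set unless the 10-library value is named. The number called leaned on single libraries: it was 6 higher and 4 lower without mutant mouse 4, 8 and 9 without mutant mouse 5, 2 and 1 without mutant mouse 8, and 6 and 5 without mutant mouse 10. Without WT mouse 1, 2, 3 or 6 it was 8 and 11, 7 and 8, 4 and 3, and 11 and 12. The groups of all 28 genes were apart in the 8 libraries, so their direction within any of these subsets is no further evidence. With all 10 libraries 6 of the 16 higher and 8 of the 12 lower genes were still apart. These genes were picked by their difference in 8 of the same libraries. The share of all tested genes with groups apart is not given, so these counts are a description only. Among the libraries that share the second index name of mutant mice 5 and 9, of which only mutant mouse 5 was retained, the mutant minus WT difference of mean log2(CPM + 1) was -0.61 for Gfra1 and -1.99 for Cacna1e when mutant mouse 9 and WT mouse 7 were included. Cd74, Il7r and Cox6a2 were called in 8 of 8 of these fits, Gfra1 and Bach2 in 7, Ms4a1 and Atp1b1 in 6, H2-DMb2 and Cfp in 5, and the other 19 in 0 to 4. Scaling to the spike-in totals moved the median of all genes to -0.23 and called 0 genes, with all 28 in the same direction.

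**Figure D1:**
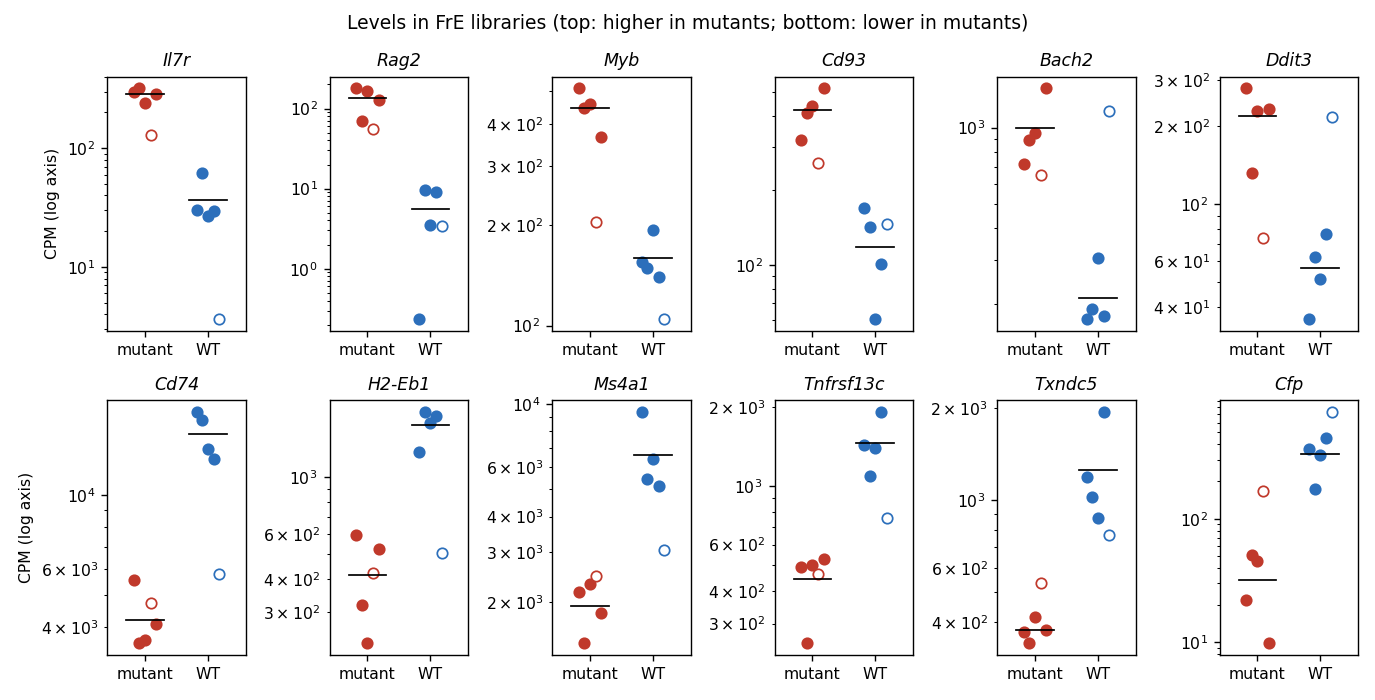
Levels of 12 genes called in the 8-library set, in CPM on a log axis, with 1 panel per gene and 1 point per library (mutants red on the left, WT blue on the right). Open points are the low-complexity libraries (mutant mouse 9 and WT mouse 7), and bars are means of the other 4 libraries of a group. Filled points of the groups do not overlap in any panel, while the open WT point of Bach2 (1160.2 CPM) and that of Ddit3 (215 CPM) stand among the mutants.

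Genes of MHC class II, the molecules that display peptides to helper T cells, lay on the low side together. All 12 tested genes of antigen presentation by class II were below 0 in mutants, at a median log2 fold change of -1.39 against -0.02 for all genes, with 4 called lower and 10 of 12 at an unadjusted p under 0.05. With 10 libraries the median was -1.31 against -0.10 for all genes, again with 12 of 12 below 0 and 11 at an unadjusted p under 0.05, none called.

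Cd74, the invariant chain that guides class II molecules through the cell, had 5561, 3573, 3643, 4711 and 4071 CPM in mutant mice 4, 5, 8, 9 and 10. In WT mice 1, 2, 3, 6 and 7 it had 17856, 16907, 13823, 12875 and 5799 CPM. All 5 mutant libraries lay below all 5 WT libraries, and WT mouse 7 was the nearest to them. The log2 fold change was -1.88 ± 0.21 (SE, adjusted p = 0.00333) and -1.65 ± 0.28 with 10 libraries (adjusted p = 0.127).

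H2-Eb1, a class II beta chain, had 593, 319, 227, 425 and 524 CPM in mutant mice 4, 5, 8, 9 and 10. Its WT levels were 1249, 1782, 1614, 1718 and 506.2 CPM in mice 1, 2, 3, 6 and 7. Only WT mouse 7 stood within the mutant range, and the log2 fold change was -1.95 ± 0.31 (SE, adjusted p = 0.0242). H2-Ab1, the other called beta chain, fell to 1237 ± 328 CPM in mutants, against 3567 ± 450.0 CPM in WT (SD, n = 4 each), by 1.54 ± 0.24 on the log2 scale (SE, adjusted p = 0.0221). The alpha chain H2-Aa stood at -1.39 ± 0.28 (SE, adjusted p = 0.0846).

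H2-DMb2, a chain of the H2-DM protein that helps to load peptides, had 284, 153, 305, 222 and 263 CPM in mutant mice 4, 5, 8, 9 and 10 and 1065, 955, 674, 827 and 445 CPM in WT mice 1, 2, 3, 6 and 7. Here too no mutant library reached the lowest WT library, and the log2 fold change was -1.82 ± 0.27 (SE, adjusted p = 0.0183). Its neighbour and close relative H2-DMb1 stood at -0.79 ± 0.46 (SE, adjusted p = 0.747), and how reads shared by both were counted is not stated, so both values are uncertain. H2-DMa, the partner chain, measured -1.38 ± 0.26 (SE, adjusted p = 0.052), and H2-Oa and H2-Ob, which restrain H2-DM, -1.47 ± 0.38 and -0.69 ± 0.24 (SE, adjusted p = 0.209 and 0.398). Ctss, the protease that trims the invariant chain, was at -0.95 ± 0.26 (SE, adjusted p = 0.232). Ciita, the master transactivator of class II genes, was low in all libraries, at 5.83 to 45.4 CPM in mutants and 16.7 to 103 CPM in WT, and stood at -0.77 ± 0.75 on the log2 scale (SE, adjusted p = 0.923).

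Class II promoters carry conserved X and Y boxes on which CIITA is assembled, so the promoters of the class II genes are shown with the letters found in them. RefSeq windows from 250 bases before to 50 after the start (GRCm38.p6) were searched for 9 of the 12 genes. Cd74, H2-Ab1 and Ciita were not among the 9. The counts below therefore say nothing about the promoters of these genes, of which Cd74 and H2-Ab1 were called. On both strands, the Y box letters CTGATTGG were found in 3 of these 9 and in 4.1% of all 32851 windows, and the X box core letters AGCAACNGA in 1 of 9 and in 1.34%, the motifs not overlapping. Capitals mark the matches below, Y box in all of the first 3 and the X box core as the earlier match in H2-Eb1. H2-DMb2, which also fell, is shown without a match.
H2-Eb1: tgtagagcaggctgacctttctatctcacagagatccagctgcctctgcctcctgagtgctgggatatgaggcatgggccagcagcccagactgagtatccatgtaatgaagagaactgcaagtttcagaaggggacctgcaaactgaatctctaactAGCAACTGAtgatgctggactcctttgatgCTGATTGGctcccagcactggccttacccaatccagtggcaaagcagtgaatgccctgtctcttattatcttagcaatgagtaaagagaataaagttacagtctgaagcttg
H2-Aa: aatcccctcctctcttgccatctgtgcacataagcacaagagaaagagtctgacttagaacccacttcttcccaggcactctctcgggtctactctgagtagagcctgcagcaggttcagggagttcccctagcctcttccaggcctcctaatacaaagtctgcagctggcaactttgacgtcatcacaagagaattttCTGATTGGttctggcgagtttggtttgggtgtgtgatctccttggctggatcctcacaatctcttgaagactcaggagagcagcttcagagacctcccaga
H2-Oa: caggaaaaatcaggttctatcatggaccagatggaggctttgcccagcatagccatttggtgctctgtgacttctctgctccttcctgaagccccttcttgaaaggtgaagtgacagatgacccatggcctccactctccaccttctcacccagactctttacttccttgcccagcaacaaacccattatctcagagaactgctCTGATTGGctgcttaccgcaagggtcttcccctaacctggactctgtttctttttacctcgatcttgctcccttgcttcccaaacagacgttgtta
H2-DMb2: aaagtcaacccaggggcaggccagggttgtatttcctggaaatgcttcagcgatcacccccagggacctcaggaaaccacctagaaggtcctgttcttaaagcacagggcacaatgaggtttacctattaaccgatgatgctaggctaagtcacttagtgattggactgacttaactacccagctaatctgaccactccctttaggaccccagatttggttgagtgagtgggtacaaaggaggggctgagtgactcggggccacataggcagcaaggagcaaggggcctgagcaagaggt
These windows lie at chr17:34305617-34305916 (plus strand), chr17:34287774-34288073 (minus strand), chr17:34092129-34092428 (plus strand) and chr17:34144999-34145298 (plus strand), in the order printed. The Y box begins at -62, -51 and -46 from the start in H2-Eb1, H2-Aa and H2-Oa, and the X box core at -92 in H2-Eb1. The 3 genes with the exact Y box letters stood at log2 fold changes of -1.95, -1.39 and -1.47. Of the 6 searched genes without these letters, H2-DMb2 stood at -1.82, H2-DMa at -1.38 and Lgmn at -1.33. Ctss stood at -0.95, H2-DMb1 at -0.79 and H2-Ob at -0.69. Only exact letters were searched, so a window without a match may still hold a variant of the box, such as gtgattgg in H2-DMb2.

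Surface receptors that B cells gain as they mature lay mostly on the low side too. Of 29 tested genes 26 lay below 0, at a median of -0.70, with 13 lower and 1 higher at an unadjusted p under 0.05 and 1 called. The called gene was Ms4a1, which encodes CD20 (chromosome 19, 11249675 to 11266241, minus strand, GRCm38). It had 2162, 1429, 2312, 2475 and 1832 CPM in mutant mice 4, 5, 8, 9 and 10, and 9362, 5433, 6398, 5124 and 3041 CPM in WT mice 1, 2, 3, 6 and 7. No mutant library reached the lowest WT library, and the log2 fold change was -1.78 ± 0.25 (SE, adjusted p = 0.0141). Fcer2a, the low-affinity IgE receptor CD23 of follicular B cells, stood at 0.669 to 36.9 CPM in mutants and 98.7 to 549 CPM in WT, without overlap and without a call (-4.29 ± 1.01, SE, adjusted p = 0.158). Cd86, a costimulatory ligand, stood at -3.14 ± 1.10 (SE, adjusted p = 0.403) and the lymphotoxin gene Ltb at -0.89 ± 0.26 (SE, adjusted p = 0.276). Cxcr4, the receptor that holds B cell precursors in the marrow, was among the 3 genes above 0, at 1.10 ± 0.47 (SE, adjusted p = 0.567).

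Tnfrsf13c encodes the receptor for BAFF, the survival factor of newly formed B cells. It had 492, 253, 503.6, 462 and 527 CPM in mutant mice 4, 5, 8, 9 and 10, against 1439.9, 1091, 1398, 1921 and 755 CPM in WT mice 1, 2, 3, 6 and 7. All mutants lay below all WT, and mutant mouse 5 lay far below the other mutants. The gene fell by 1.74 ± 0.29 on the log2 scale (SE, adjusted p = 0.0282). The call was kept in 2 of the 8 fits with a library left out, those without WT mouse 2 and WT mouse 6, and the log2 fold change spanned -1.86 to -1.54 over the 8. Of the 13 tested BAFF and TNF receptor family genes 10 lay below 0 at a median of -0.42. Tnfrsf13b, the BAFF and APRIL receptor TACI, measured -0.74 ± 0.26 (SE, adjusted p = 0.421) and Cd40 -1.01 ± 0.34 (SE, adjusted p = 0.393).

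No gene of the B cell receptor complex and its proximal signalling was called among 20 tested, of which 15 lay below 0 at a median of -0.34. Bank1, a scaffold of receptor signalling, came closest at -1.46 ± 0.31 (SE, adjusted p = 0.097), with 82.6 to 199 CPM in mutants and 289 to 507.1 CPM in WT. Fyn, a Src family kinase, was on the other side at 1.86 ± 0.55 (SE, adjusted p = 0.283).

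Several genes of the pre-B stage rose. In the list of pre-B and recombination genes 18 of 22 were tested, 10 above and 8 below 0 at a median of 0.73, with 4 called higher and none lower. The called members were Il7r, Rag2, Myb and Cd93.

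Il7r encodes the IL-7 receptor alpha chain that sustains early B cell precursors (chromosome 15, 9505788 to 9530176, minus strand, GRCm38). It had 296, 320.0, 239, 129 and 287 CPM in mutant mice 4, 5, 8, 9 and 10, and 30.0, 61.7, 26.8, 29.4 and 3.62 CPM in WT mice 1, 2, 3, 6 and 7. Every mutant library stood above every WT library, although the value of mutant mouse 9 rests on 7 counts. The log2 fold change was 2.94 ± 0.33 (SE, adjusted p = 0.00333) and 3.08 ± 0.56 with 10 libraries (SE, adjusted p = 0.127).

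Rag2, a subunit of the V(D)J recombinase (chromosome 2, 101624718 to 101632529, plus strand), had 179.6, 69.9, 164, 55.4 and 128 CPM in mutant mice 4, 5, 8, 9 and 10. In WT mice 1, 2, 3, 6 and 7 it had 0.233, 9.63, 3.48, 9.01 and 3.41 CPM. The lowest mutant library, mouse 9 with 3 counts, was above the highest WT library, and the log2 fold change was 4.59 ± 0.83 (SE, adjusted p = 0.0418). It was called in 1 of the 8 fits with a library left out. Rag1, its partner, also had groups without overlap (3 counts in mutant mouse 9), at 40.3 to 116 CPM in mutants and 0.0465 to 13.3 CPM in WT, but was not called (3.51 ± 0.998, SE, adjusted p = 0.254).

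Myb, a transcription factor of progenitors, had 511, 447, 458, 203 and 365 CPM in mutant mice 4, 5, 8, 9 and 10 and 155, 148, 193, 139.5 and 104 CPM in WT mice 1, 2, 3, 6 and 7, without overlap. Its log2 fold change was 1.47 ± 0.23 (SE, adjusted p = 0.0242). Cd93, the antigen of the AA4.1 antibody that marks immature B cells, stood at 422 ± 81.6 CPM in mutants and 118 ± 48.3 CPM in WT (SD, n = 4 each). It rose by 1.83 ± 0.33 on the log2 scale (SE, adjusted p = 0.0395). Sox4, a factor of early precursors, measured 1.70 ± 0.37 (SE, adjusted p = 0.102), and Vpreb3, which binds the heavy chain in precursors, 0.80 ± 0.26 (SE, adjusted p = 0.359). The surrogate light chain genes Vpreb1 and Igll1 stood at -0.30 ± 1.67 and -0.59 ± 1.89, and the cyclin gene Ccnd2 at -1.33 ± 0.41 (SE, adjusted p = 0.994, 0.992 and 0.31). In the retained libraries Vpreb1 spanned 1.53 to 169 CPM in mutants and 0.791 to 274 CPM in WT. Igll1 spanned 13.9 to 389 CPM in mutants and 1.21 to 863 CPM in WT. Both were highest in WT mouse 2. With this spread the fits cannot show whether Vpreb1 and Igll1 rose, fell or stayed.

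Transcription factors of the lineage did not move one way. Of 29 tested 14 lay above and 15 below 0 at a median of -0.02, and 1 was called. This was Bach2, a repressor that holds back plasma cell differentiation, with 719.5, 889, 951, 647 and 1432 CPM in mutant mice 4, 5, 8, 9 and 10 and 174, 191, 305, 179.7 and 1160.2 CPM in WT mice 1, 2, 3, 6 and 7. The 4 retained WT libraries lay below all mutants, but WT mouse 7 lay above all mutants except mouse 10. The log2 fold change was 2.22 ± 0.30 (SE, adjusted p = 0.0119) without the low-complexity libraries and 1.15 ± 0.52 with them (SE, adjusted p = 0.926). Irf4 and Ebf1, both needed in B cell development, stood at 1.69 ± 0.37 and 1.42 ± 0.31 (SE, adjusted p = 0.097 and 0.0984), and Id3, an inhibitor of E proteins, at -1.35 ± 0.27 (SE, adjusted p = 0.0846). Lmo4, a LIM domain cofactor, rose to 424 ± 83.6 CPM in mutants, against 129 ± 30.9 CPM in WT (SD, n = 4 each, log2 fold change 1.71 ± 0.26, SE, adjusted p = 0.0221).

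**Figure D2:**
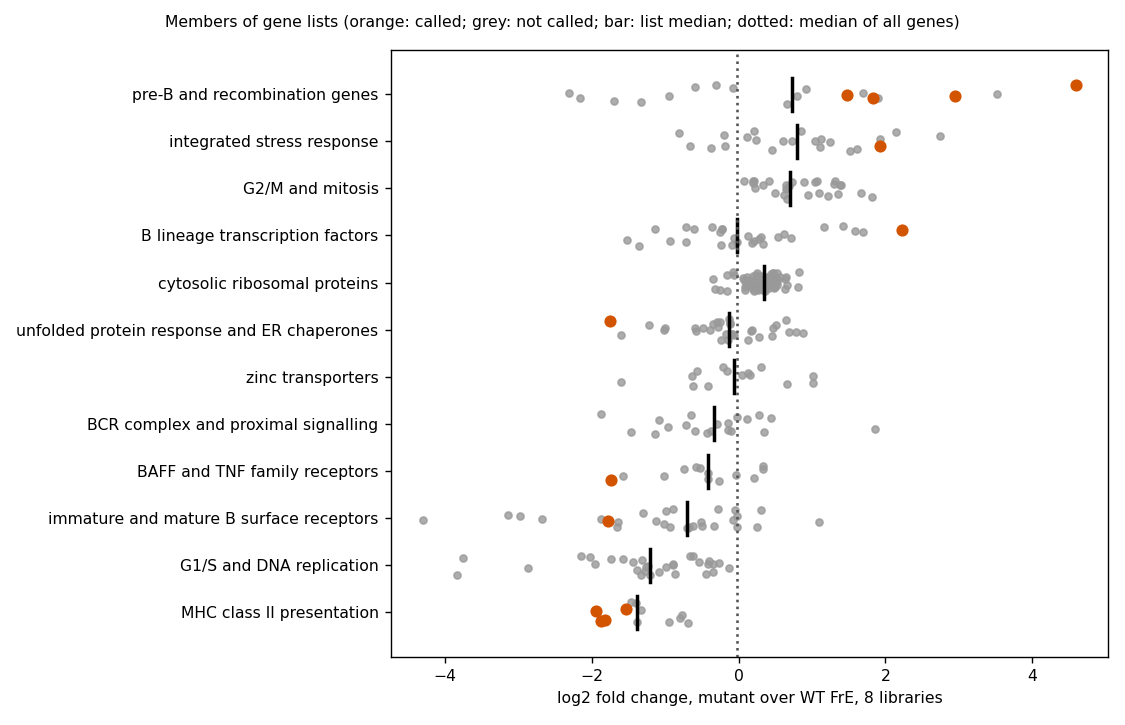
Log2 fold changes of mutant over WT FrE in the 8-library set for the tested members of 12 gene lists (1 point per gene, shifted at random along the vertical axis within a list). Orange points are called genes, black bars list medians and the dotted line the median of all genes (-0.02). All 12 class II genes lie left of 0, and all 28 G2/M genes right of it.

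Stress responses of the ER were looked at because of where ZIP7 acts. The integrated stress response, which raises amino acid supply genes through ATF4 when translation is throttled, had 17 of 22 tested members above 0 at a median of 0.79, with 4 at an unadjusted p under 0.05 and 1 called. Ddit3, which encodes CHOP, had 279, 131, 228, 73.9 and 232 CPM in mutant mice 4, 5, 8, 9 and 10 and 35.9, 62.7, 51.4, 76.5 and 215 CPM in WT mice 1, 2, 3, 6 and 7. In the retained libraries the groups did not overlap, whereas WT mouse 7 stood with the mutants and mutant mouse 9 with WT. The log2 fold change was 1.93 ± 0.33 (SE, adjusted p = 0.0348) and 1.08 ± 0.52 with 10 libraries (SE, adjusted p = 0.936). Atf4 itself, at 621 ± 104 CPM in mutants and 287 ± 53.6 CPM in WT (SD, n = 4 each), was not called (1.10 ± 0.24, SE, adjusted p = 0.0983), nor were the amino acid transporter gene Slc38a2 (1.25 ± 0.26, SE, adjusted p = 0.0923) and the mitochondrial folate enzyme gene Mthfd2 (1.61 ± 0.36, SE, adjusted p = 0.113).

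The list of the unfolded protein response and ER chaperones had 11 of 33 members above and 22 below 0 at a median of -0.13. At an unadjusted p under 0.05 Herpud1, Canx and Sec61b were higher in mutants, and Txndc5, Creld2, Pdia4 and Sel1l lower. Hspa5, the main ER chaperone, had 1004, 681, 1006, 591 and 1082 CPM in mutant mice 4, 5, 8, 9 and 10 and 469, 846, 738, 1235 and 800.1 CPM in WT mice 1, 2, 3, 6 and 7. These ranges overlapped (0.18 ± 0.29, SE, adjusted p = 0.981), as did those of Xbp1, the factor of the IRE1 branch (-0.29 ± 0.29, SE, adjusted p = 0.931). The sign of Hspa5 turned to -0.10 when libraries were scaled to spike-in totals, where the median of all genes was -0.23. Txndc5, a protein disulphide isomerase of the ER, was the called member and moved down. It had 369.7, 340.3, 415, 536 and 375 CPM in mutant mice 4, 5, 8, 9 and 10 and 1193, 1021, 873, 1942 and 766 CPM in WT mice 1, 2, 3, 6 and 7, without overlap. The log2 fold change was -1.76 ± 0.27 (SE, adjusted p = 0.0221). Txndc5 is abundant in plasma cells, and the plasma cell gene Jchain stood at 21881, 5287 and 12751 CPM in WT mice 2, 3 and 6 and at 8.56 CPM in WT mouse 1. The part of plasma cell RNA in the Txndc5 difference, and in the values of Hspa5, Xbp1 and the other members of this list, was not tested.

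Among 18 tested apoptosis regulators Bmf, a BH3-only protein that antagonises BCL2, was called. It had 74.2, 18.5, 66.9, 18.5 and 60.2 CPM in mutant mice 4, 5, 8, 9 and 10 and 2.88, 2.86, 6.64, 3.76 and 206 CPM in WT mice 1, 2, 3, 6 and 7. Without WT mouse 7 and mutant mouse 9 the groups were apart, at 3.74 ± 0.66 on the log2 scale (SE, adjusted p = 0.0387). With them the value was 0.07 ± 1.12 (SE, adjusted p = 0.999). The list median was -0.19. Mcl1 and Bid, a survival and a death gene of the same family, stood at -0.59 ± 0.25 and -0.99 ± 0.31 (SE, adjusted p = 0.553 and 0.314).

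The other called genes belong to none of the B cell or stress lists. Cox6a2, a subunit of cytochrome c oxidase best known from muscle and listed here as a marker of plasmacytoid dendritic cells, had 229.6, 275, 345, 36.9 and 292 CPM in mutant mice 4, 5, 8, 9 and 10 and 53.4, 45.4, 33.1, 22.2 and 0.852 CPM in WT mice 1, 2, 3, 6 and 7. Only the low-complexity mutant mouse 9 stood among WT, and the log2 fold change was 2.88 ± 0.33 (SE, adjusted p = 0.00333). Siglech, a defining gene of plasmacytoid dendritic cells, stood at 0, 817, 0.0464, 73.9 and 0.0478 CPM in mutant mice 4, 5, 8, 9 and 10. In WT mice 1, 2, 3, 6 and 7 it stood at 210, 66.2, 0.263, 0.648 and 1.92 CPM. Other listed markers, Bst2, Irf8 and Tcf4, were detected in every library, and no marker of that list except Cox6a2 was called. The part of plasmacytoid dendritic cell RNA in the Cox6a2 difference was not tested.

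Gfra1, a receptor for GDNF, had 80.7, 86.4, 114, 0 and 50.6 CPM in mutant mice 4, 5, 8, 9 and 10 and 3.30, 4.49, 6.32, 5.90 and 90.7 CPM in WT mice 1, 2, 3, 6 and 7. It was apart in the retained libraries (4.03 ± 0.49, SE, adjusted p = 0.00552) and mixed in all 10 (1.58 ± 0.98, SE, adjusted p = 0.999). Atp1b1, the beta subunit of the sodium pump, stood at 569 ± 166 CPM in mutants and 132 ± 34.7 CPM in WT (SD, n = 4 each). It rose by 2.09 ± 0.30 on the log2 scale (SE, adjusted p = 0.0163), and its groups were apart in all 10 libraries. Cacna1e, a calcium channel subunit, rose by 2.62 ± 0.46, Nktr, a cyclophilin-related protein, by 1.83 ± 0.31, and the deubiquitinase gene Stambpl1 by 1.53 ± 0.27 (SE, adjusted p = 0.0377, 0.032 and 0.0395). The sodium chloride transporter gene Slc12a3 rose by 2.17 ± 0.40 and Tapt1 by 1.53 ± 0.28 (SE, adjusted p = 0.0478 and 0.0455).

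Among the genes that fell, Cfp encodes properdin, which stabilises the alternative complement pathway. It stood at 21.8, 50.4, 45.9, 166 and 9.84 CPM in mutant mice 4, 5, 8, 9 and 10 and 369, 175, 328, 452 and 730.2 CPM in WT mice 1, 2, 3, 6 and 7. No mutant library reached a WT library, although mutant mouse 9 came close to WT mouse 2, and the log2 fold change was -3.39 ± 0.50 (SE, adjusted p = 0.0183). Rhof, a small GTPase, stood at 7.67 ± 1.75 CPM in mutants and 97.6 ± 55.8 CPM in WT (SD, n = 4 each, -3.68 ± 0.59, SE, adjusted p = 0.0242). Cyb561a3, a cytochrome b561 of lysosomes, fell by 1.66 ± 0.28 (SE, adjusted p = 0.032).

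A pair of genes was close to undetected in mutants. Nxpe2 summed to 2 counts in the 5 mutants and 1704 in the 5 WT mice, with 0 to 0.0478 CPM in mutants and 1.49 to 38.8 CPM in WT. Slc15a2, a peptide transporter, summed to 4 counts in the 5 mutants and 2036 in the 5 WT mice, with 0 to 0.143 CPM in mutants and 0.639 to 51.2 CPM in WT. Both passed the filter on low counts only through the WT libraries, so their calls are given as a description, and no fold change is given. Gm6525 stood the other way round with 1811 counts in mutants and 15 in WT, but was not called (adjusted p = 0.158). Its counts in WT mice 1, 2, 3, 6 and 7 were 12, 3, 0, 0 and 0. It passed the filter through the mutant libraries, so its values too are a description only.

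Cell cycle genes split by phase, none of them called. All 31 G1/S and DNA replication genes lay below 0 at a median of -1.21, 9 of them at an unadjusted p under 0.05, and all 28 G2/M and mitosis genes lay above 0 at a median of 0.70, 5 of them at an unadjusted p under 0.05. The G1/S genes Mcm5 and Ccne1, a subunit of the replicative helicase and cyclin E1, stood at -2.02 ± 0.66 and -3.83 ± 1.33 (SE, adjusted p = 0.362 and 0.398). Summed G1/S levels were 2020.4, 2145, 1402 and 715 CPM in mutant mice 4, 5, 8 and 10 and 2001, 5759, 1869 and 2625 CPM in WT mice 1, 2, 3 and 6, so the sums overlapped. Summed G2/M levels were 7495, 5817, 5907 and 1909 CPM in those mutants, against 4395, 5654, 1248 and 709 CPM in WT, again with overlap. Mki67, the proliferation antigen, stood at 1.39 ± 0.52 and Cdc20, an activator of the anaphase complex, at 1.04 ± 0.38 (SE, adjusted p = 0.475 and 0.425). With 10 libraries the medians were -0.85, with 30 of 31 below 0, and 0.79, with 28 of 28 above, against -0.10 for all genes.

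Metabolic, interferon and ribosomal lists held no call. Glycolysis genes lay below 0 in 14 of 15 cases at a median of -0.54, Aldoa at -0.75 ± 0.22 (SE, adjusted p = 0.268), and cholesterol synthesis genes in 15 of 19 cases at the same median. Interferon response genes lay below 0 in 20 of 22 cases at a median of -0.46. Oxidative phosphorylation genes stood at a median of -0.05. Cytosolic ribosomal protein genes were above 0 in 71 of 78 cases at a median of 0.34, but stood at -0.19 with 10 libraries, their sum being 114651 CPM in WT mouse 7 against 27378 to 53148 CPM in the other 9. Scaled to spike-in totals the 8-library median of the ribosomal genes was 0.0894, against -0.23 for all genes. The remaining lists held no called gene, at medians of -0.35 for receptor signalling phosphatases, -0.04 for immediate early genes, 0.14 for p53 targets, -0.34 for heat shock genes and -0.20 for oxidative stress genes.

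FrD, the late pre-B cells of the same mice (B220+, CD43-, IgM-, IgD-), gives the stage just before. Il7r stood at 527 ± 156 CPM in mutant FrD and 597 ± 291 CPM in WT FrD (SD, n = 5 each), and Rag2 at 180.1 ± 73.8 CPM in mutant FrD and 267 ± 143 CPM in WT FrD (SD, n = 5 each). Mutant FrE levels of both lay between those of WT FrD and WT FrE. Cd74 was at 768 ± 325 CPM in mutant FrD and 2093 ± 1583 CPM in WT FrD (SD, n = 5 each), which is below both FrE groups.

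The genotype effect in FrD had the sign of that in FrE for 9 of 11 tested genes of the lower set and 3 of 16 of the higher set, with medians of -1.44 and -0.22. Without the low-complexity WT mouse 3 of FrD these counts were 9 of 11 and 6 of 16, with medians of -1.71 and -0.21. Of all genes tested in FrD, 45.7% lay above 0 with 10 libraries and 53.3% with 9, at medians of -0.07 and 0.06. Tnfrsf13c was called lower in FrD as well (-2.49, adjusted p = 0.021). Ms4a1 stood at -5.87 and Cfp at 3.44 in FrD, neither of them called (adjusted p = 0.149 and 0.84). Stambpl1 was called in FrD without the low-complexity WT mouse 3, in the opposite direction to FrE (-1.18, adjusted p = 0.0272). The difference between the effects was tested as an interaction. On 20 libraries 0 of 10986 genes (0%) passed and 794 had an unadjusted p under 0.05, with Rag2 and Atp1b1 at 5.14 and 2.63 (adjusted p = 0.0526 each), while DESeq2 called 78 higher and 94 lower. Without the low-complexity libraries of both fractions 48 of 11157 genes (0.43%) passed, 39 of them higher. They included 10 of the 16 higher genes and 1 of the 12 lower genes. Both sets had been picked by their difference in the same FrE libraries, which this fit uses again. The choice favours such an overlap, so these counts are a description only. Il7r differed in this fit by 3.38, Rag2 by 5.48, Myb by 1.70 and Cd93 by 1.89 between FrE and FrD (adjusted p = 0.000113, 0.00562, 0.00656 and 0.0257). The adjustment does not allow for the earlier choice of these genes. For Cd74 the difference was -0.16 and for Ddit3 0.34 (adjusted p = 0.974 and 0.936), with effects in FrD of -1.71 and 1.62, and neither was called in FrD. The integrated stress response stood at a median of 1.12 in FrD with 10 libraries, and the unfolded protein response at 0.52. With mouse as a replicate block, fitted on the 20 libraries only, the interaction again called 0 genes (lowest adjusted p = 0.22). Il7r, Rag2, Myb and Cd93 stood there at 3.33, 5.12, 1.73 and 1.81 (adjusted p = 0.588, 0.521, 0.521 and 0.623). The set without low-complexity libraries was not fitted with this block.

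**Figure D3:**
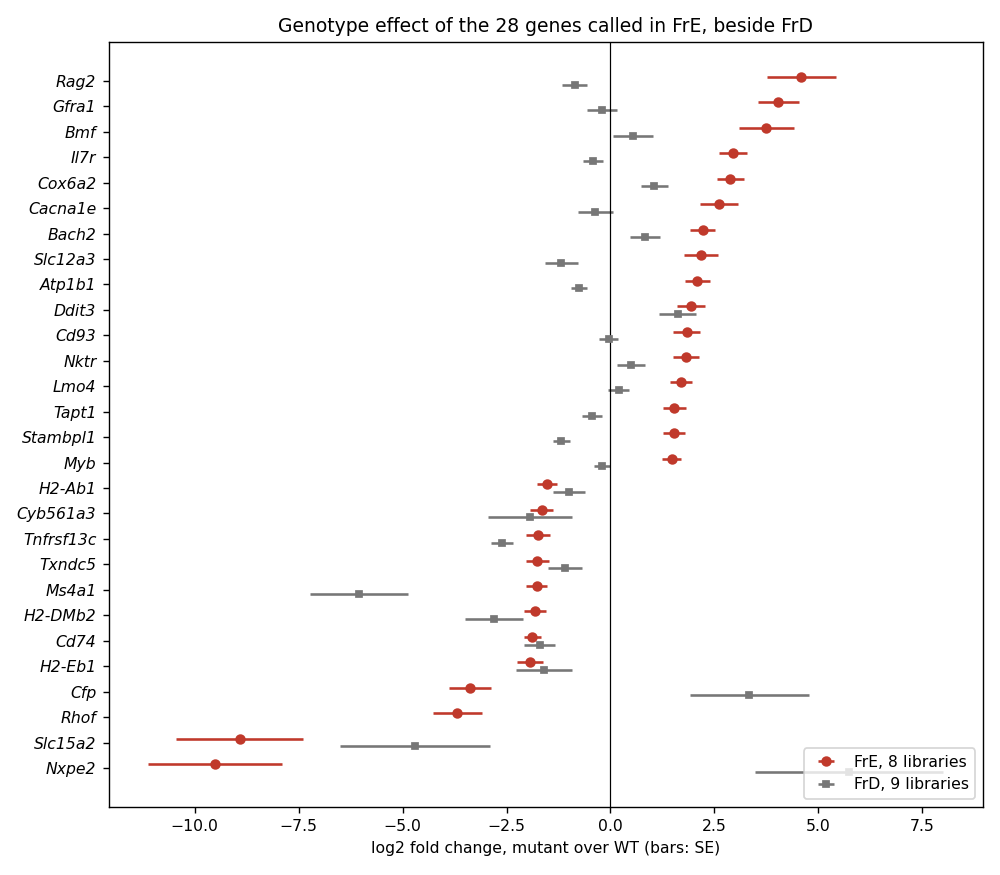
Log2 fold changes of mutant over WT for the 28 genes called in FrE (red circles, 8 libraries) and for the same genes in FrD (grey squares, 9 libraries without WT mouse 3), with bars of 1 SE. The genes that rose in FrE lie on both sides of 0 in FrD, and Rhof was not tested in FrD.

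RNA of other cell types was unevenly present and was set beside these results. In bulk samples fewer cells of a type and less RNA per cell cannot be told apart. The summed level of 23 granulocyte and monocyte markers was 71554 CPM in mutant mouse 5 and 17254 CPM in mutant mouse 9, against 6391 CPM in WT mouse 3 and at most 1778 CPM in the other 7. The elastase gene Elane was at 7718 CPM in mutant mouse 5 and at 0, 0 and 0.334 CPM in mutant mice 4, 8 and 10. Erythroid markers summed to 7664 CPM in mutant mouse 5 and 25299 CPM in WT mouse 7. Plasma cell markers summed to 2005 to 2581 CPM in mutants and 1289.7 to 25199 CPM in WT, Jchain being at 8.07 to 924 CPM in mutants. Plasmacytoid dendritic cell markers summed to 538 to 3862 CPM in mutants and 880.3 to 1447 CPM in WT, a sum that includes the called Cox6a2. Markers of other marrow cells summed to 106 to 1570.2 CPM in mutants and 130.4 to 8548 CPM in WT, the highest in WT mouse 3. Without mutant mouse 5, 12 of the 28 genes were still called. The part of other cell types in these differences was not tested.

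**Figure D4:**
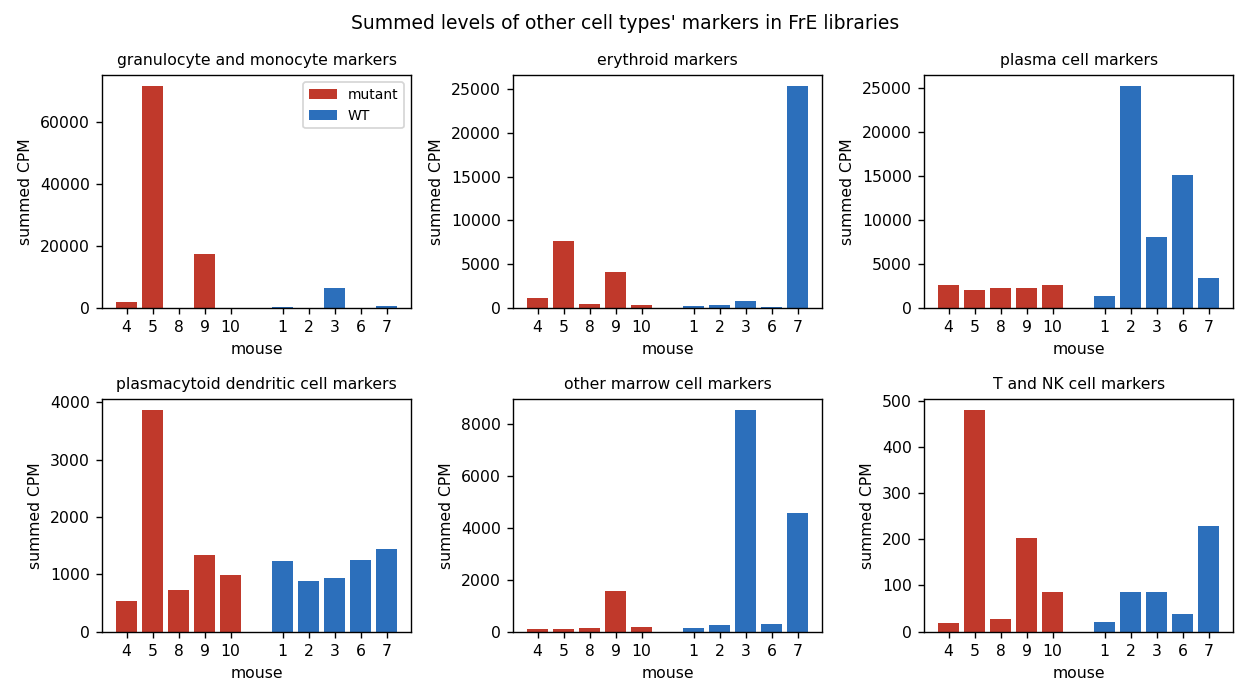
Summed CPM of the markers of 6 other cell types in each FrE library (bars, linear axes of different height, mutants red on the left and WT blue on the right, labelled by mouse number). Granulocyte markers stand out in mutant mouse 5, erythroid markers in WT mouse 7 and plasma cell markers in WT mice 2, 3 and 6.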

How the data were processed

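RNA of 100 sorted cells per library was measured by Smart-seq2 with ERCC spike-in RNA, per the labels' protocols. The authors deposited raw counts per gene, and per the submitters' processing notes the tools were HISAT2 2.1.0, featureCounts 1.4.6 (Subread) and DESeq2 with build mm10; annotation release and strand setting are not stated there, so reads of overlapping or antisense genes may be shared. Identifiers were matched to GENCODE M21 (GRCm38), 21728 of 21958 genes.

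Genotypes were compared with edgeR 4.0.16 in R 4.3.3 (robust quasi-likelihood; TMM; filterByExpr at counts of 10 per library and 15 in all), two-sided, Benjamini-Hochberg adjusted over all genes tested and called under 0.05, on 10 libraries and on the 8 in which at most 15% of detected genes had 1 to 9 counts. CPM use 1 TMM scaling over the 20 FrE and FrD libraries. The interaction of genotype and fraction was fitted on those 20 libraries. Levels are mean ± SD and fitted log2 fold changes ± SE. Members and gene lists were chosen with earlier results of these data known. Named genes are the called genes of a fit (up to 12 a direction, or the 6 of lowest p where fewer than 6 were called), called list members and a fixed set of B cell and stress genes, of which 1 is not reported here; other genes, such as Tapt1, Slc12a3 and uncalled list members, are named after their values were seen. Alternatives were DESeq2 1.42.0, voom of limma 3.58.1, RLE and ERCC scaling, no filter, the second index as covariate, other complexity limits and leaving out libraries. Libraries of a mouse share its number in the titles, which is where the pairing with FrD comes from; deviations of FrD and FrE of a mouse correlated by -0.17 to 0.21. Only the 8-library comparison was tested on simulated data, which does not cover the 10-library and interaction fits. Each mouse gave 1 library, and the reads carry no molecular identifiers.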

Additional observations from a re-analysis of the deposited data

Results flagged for a closer look

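In 12 of 76 groups of 5 values the highest or lowest library stood apart from the other 4 by Dixon's test, where chance gives about 5% in groups not chosen by their values. Most of these groups are genes called without WT mouse 7 and mutant mouse 9, so that rate does not apply to them. In WT mouse 7, 6 genes called higher in mutants stood far above the other 4 WT libraries. They were Gfra1 at 90.7 CPM (others 3.30 to 6.32), Bach2 at 1160.2 CPM (174 to 305), Nktr at 218 CPM (44.7 to 74.8), Ddit3 at 215 CPM (35.9 to 76.5), Cacna1e at 298 CPM (17.7 to 41.6) and Bmf at 206 CPM (2.86 to 6.64).

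Mutant mouse 9 stood apart by its total of 42111 counts (others 18920900 to 20678000), its 7365 detected genes (10486 to 11068) and its 87.9% of detected genes with 1 to 9 counts (7.66% to 12.8%). The last of these is the value by which the library was left out. In the same library Cfp stood at 166 CPM (others 9.84 to 50.4) and Rhof at 36.9 CPM (5.87 to 9.75), both towards WT. Tnfrsf13c in mutant mouse 5 was low at 253 CPM (others 462 to 527).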

How the results depend on the processing

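With 10 libraries 0 genes were called in either direction under RLE factors, ERCC scaling, the second-index covariate and 9 of 10 fits with a library left out, whose range was 0 to 9 higher and 0 to 12 lower (the highest without WT mouse 7). DESeq2 gave 22 higher and 36 lower, no filter 3 and 2, voom 3 and 7, a model of all 40 libraries 5 and 0, and leaving out the low-complexity libraries 16 and 12. In the 8-library set the range with a library left out was 2 to 11 higher and 1 to 12 lower (lowest without mutant mouse 8). DESeq2 gave 81 and 106, ERCC scaling 0 and 0, no filter 26 and 22, voom 17 and 22 (20 of the 28 shared) and the second-index covariate 6 and 8 (14 shared). A limit of 20% left the same libraries out and RLE factors called 16 and 13. A limit of 10% left mutant mouse 5 alone against 3 WT libraries, assumed to vary like them, and gave 12 and 7, none shared. For the difference between FrE and FrD, which was 0 and 0, the replicate block of mouse gave 0 and 0 and changed no call, the set without low-complexity libraries 39 and 9, DESeq2 78 and 94, no filter 8 and 1, and leaving out a mouse 0 to 14 higher (the highest without WT mouse 3) and 0 to 1 lower.

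Single genes that turned sign were all uncalled. Slc39a7 turned to 0.71 under voom with 10 libraries and to 0.68 with 8. Hspa5 turned to -0.092 under ERCC scaling and -0.062 with the index covariate with 10 libraries, and to -0.10 under ERCC scaling and -0.47 at the 10% limit with 8. Under ERCC scaling the median of all genes was -0.24 with 10 libraries and -0.23 with 8. With a library left out, Hspa5 spanned -0.079 to 0.26 (10 libraries, lowest without WT mouse 1) and -0.00857 to 0.45 (8 libraries, lowest without WT mouse 1), Xbp1 -0.47 to 0.082 (10 libraries, highest without WT mouse 2), and Slc39a7 -0.62 to 0.83 (8 libraries, highest without WT mouse 6). The cause of these changes was not tested. The depth of mutant mouse 9 (42111 counts) limits what its levels of low genes can show.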
